A study of Rattus norvegicus with 6 samples.

Results

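Ptgs2, Il6, Icam1 and Vcam1 are 4 inflammatory genes of the vessel wall, and their transcript levels were followed in rat vascular smooth muscle cells (VSMCs) with and without knockdown of SLC2A10, the gene of the glucose transporter GLUT10. The 4 genes were chosen by their Ensembl IDs, ENSRNOG00000002525 for Ptgs2, ENSRNOG00000010278 for Il6, ENSRNOG00000020679 for Icam1 and ENSRNOG00000014333 for Vcam1, out of 13304 genes and loci in the tables. All 4 were listed in all 6 libraries. VSMCs are the contractile cells of the arterial wall. The methods describe cells cultured from male SD (Sprague-Dawley) rats and infected with control virus or with virus that carries a short hairpin RNA (shRNA) against SLC2A10. There were 3 groups of 2 libraries, which are control, interference sequence 2 and interference sequence 3, the numbers being read from the titles. The control libraries carry the genotype label wild type. The libraries of both sequences carry the genotype label SLC2A10-/- and titles with siRNA, which differs from the shRNA virus of the methods. These 4 libraries are called knockdown libraries here. The extraction protocol in the labels names frozen aorta rather than cultured cells, and the design text names mice. The labels do not say whether the 2 libraries of a group came from separate cultures, so p-values measure only the spread between libraries, which may be technical. The IDs of the files were not paired with gene names by the gene table used here, so SLC2A10 itself, the markers of smooth muscle and other cells, and other genes of these pathways were not analysed. Without the targeted gene, each direction depends on the labels being right. Across the genes tested, each control correlated with each knockdown library at 0.902 to 0.922, below the 0.968 between the controls, and replicate 1 of sequence 3 correlated better with replicate 1 of sequence 2 (0.971) than with its own partner (0.955). In such bulk samples fewer cells of a type and less RNA per cell cannot be told apart.

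Ptgs2 encodes cyclooxygenase-2 (COX-2), the inducible enzyme that turns arachidonic acid into prostaglandin H2, the precursor of the prostaglandins. Il6 encodes interleukin-6, a secreted cytokine that acts through gp130 and STAT3 and that VSMCs release under inflammatory stimuli. Icam1 and Vcam1 encode immunoglobulin-like surface proteins that bind leukocyte integrins and let leukocytes attach to the vessel wall. Transcription of all 4 genes is known to be induced by NF-kappaB, which is activated by cytokines and by Toll-like receptors. COX-2 is also the protein that the study followed in lung tumours.

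The stretches of 250 bases before the annotated transcript starts of the 4 genes are shown because these genes share a known inducer. They are the RefSeq promoter sequences of the rat assembly GRCr8, printed 5′ to 3′ on the strand of the gene, and all 4 symbols were found in that set. The regions are chr13:64713813-64714062, plus strand for Ptgs2, chr4:5894576-5894825, minus strand for Il6, chr8:27829595-27829844, plus strand for Icam1 and chr2:206742784-206743033, minus strand for Vcam1. These coordinates are not those of the deposited files. Capitals mark a full match to the kappaB consensus GGGRNWYYCC, searched on both strands, and sites that differ from it at any base are not marked. In it R is A or G, Y is C or T, W is A or T and N is any base.
Ptgs2: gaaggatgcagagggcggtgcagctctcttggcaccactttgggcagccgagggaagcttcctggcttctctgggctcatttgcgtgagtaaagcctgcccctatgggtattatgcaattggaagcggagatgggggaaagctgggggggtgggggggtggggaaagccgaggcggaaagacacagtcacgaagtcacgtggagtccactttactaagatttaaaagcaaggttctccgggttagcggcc
Il6: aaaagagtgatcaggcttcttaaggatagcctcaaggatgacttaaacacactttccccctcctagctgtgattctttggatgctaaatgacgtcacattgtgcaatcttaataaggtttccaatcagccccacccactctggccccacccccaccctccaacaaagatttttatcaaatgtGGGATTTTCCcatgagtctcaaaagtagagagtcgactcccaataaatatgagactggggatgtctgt
Icam1: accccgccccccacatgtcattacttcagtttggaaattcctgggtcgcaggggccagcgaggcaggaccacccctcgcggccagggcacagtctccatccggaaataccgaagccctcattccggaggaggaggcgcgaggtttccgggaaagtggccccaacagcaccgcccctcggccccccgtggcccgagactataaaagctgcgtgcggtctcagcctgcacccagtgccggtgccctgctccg
Vcam1: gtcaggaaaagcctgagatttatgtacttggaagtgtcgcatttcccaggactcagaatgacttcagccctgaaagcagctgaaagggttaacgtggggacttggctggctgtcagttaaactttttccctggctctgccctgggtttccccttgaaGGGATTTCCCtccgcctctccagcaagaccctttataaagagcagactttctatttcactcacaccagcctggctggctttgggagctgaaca
The kappaB consensus matched once in Il6, from 68 to 59 bases before the start, and once in Vcam1, from 93 to 84 bases before it. Of 33469 rat promoters of the same length, 3.54% held a match. Ptgs2 and Icam1 held none, which says only that these letters are not in these windows. The letters TGACGTCA, the cyclic AMP response element, were found in Il6 from 162 to 155 bases before the start and in 1.59% of promoters. The core of the interferon-stimulated response element was found in Vcam1 on the opposite strand, from 46 to 37 bases before the start, and in 3.41% of promoters. The sense-strand letters TATAAA occurred in Icam1, from 53 to 48 bases before the start, and in Vcam1, from 60 to 55, against 8.06% of promoters. The AP-1 letters TGANTCA, present in 6.34% of promoters, were in none of the 4 windows. A match is a description of the sequence and not a measured binding site.

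Levels are given in FPKM, a fragment count divided by transcript length and by library size, so genes can be compared. The level of a gene was the larger of its summed transcript starts and its summed transcript ends. In controls Vcam1 was far above the other genes, Il6 and Icam1 lay at similar levels, and Ptgs2 was the lowest. Vcam1 had a mean of 596 ± 5.45 FPKM (SD, n = 2), Il6 of 101 ± 9.63, Icam1 of 97.4 ± 0.886 and Ptgs2 of 24.4 ± 0.656. Il6 and Icam1 are neighbours in that order that did not differ beyond their spread, since the Il6 values of 94.2 and 108 enclosed the Icam1 values of 96.7 and 98.0. Vcam1 was above 99.3% and 99.5% of the genes listed in the 2 controls. The corresponding shares were 95.5% and 95.8% for Il6 and 81.2% in both for Ptgs2. The Vcam1 level sums loci on both strands, described below. Its main locus alone was 572 and 509 FPKM in the controls, so the small SD of Vcam1 rests on the sum.

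In the knockdown libraries the order was Vcam1, Icam1, Il6 and Ptgs2. The means over the 4 libraries were 453 ± 62.6 FPKM (SD, n = 4) for Vcam1, 98.3 ± 2.89 for Icam1, 33.7 ± 18.6 for Il6 and 17.5 ± 2.70 for Ptgs2. The neighbours Il6 and Ptgs2 overlapped there, with Il6 between 17.1 and 52.2 FPKM and Ptgs2 between 13.8 and 19.8. Both other steps in the order were without overlap. Icam1 stayed above 94.8% to 95.6% of the genes listed in each knockdown library, while the share below Il6 ranged from 73.2% to 90.6%.

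**Figure D1:**
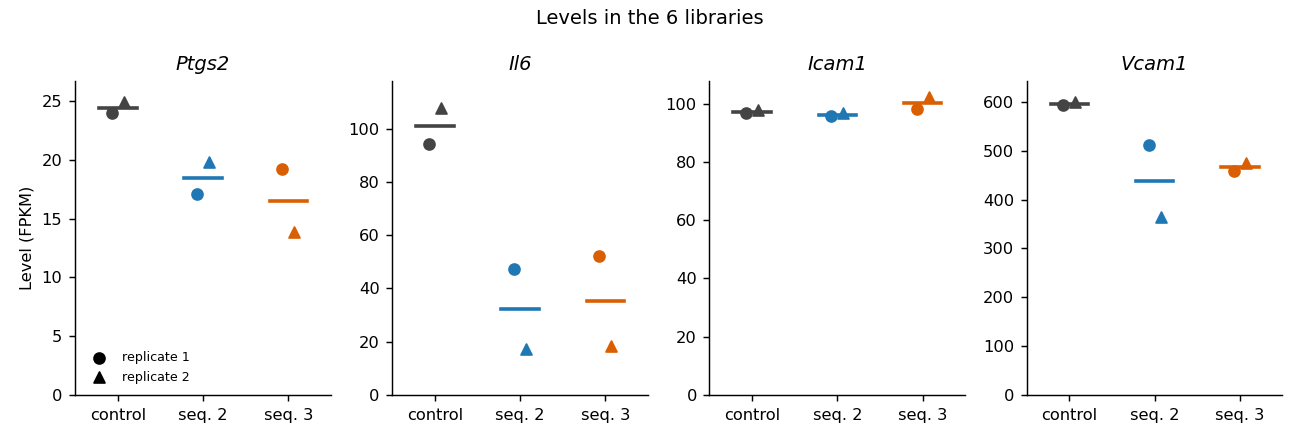
Level in FPKM of Ptgs2, Il6, Icam1 and Vcam1 in each of the 6 libraries, with circles for replicate 1, triangles for replicate 2 and a bar at the group mean (n = 2). All 4 knockdown libraries lie below both controls for Ptgs2, Il6 and Vcam1, and Icam1 lies between 95.9 and 102 FPKM throughout.

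The first question was whether the genes differed between knockdown and control. Levels were compared as log2(FPKM + 1) by limma across 10558 genes, with p-values adjusted over all of them. Of the 4 genes, 0 passed an adjusted p of 0.05 in the mean of both sequences against control, where 5.11% of all genes tested did so. At an unadjusted p under 0.05 there were 3 of the 4, all lower in the knockdown libraries, against 7.24% of genes that were lower at this limit. The same 3 genes, Ptgs2, Il6 and Vcam1, were below both controls in all 4 knockdown libraries, as were 11.2% of the genes tested. An exact permutation test of 2 controls against 4 knockdown libraries cannot give a p below 0.0667.

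Il6 had the largest difference of the 4. Its FPKM was 94.2 and 108 in the controls, 47.3 and 17.1 with sequence 2, and 52.2 and 18.3 with sequence 3. Both control values lay above all 4 knockdown values, and the highest knockdown value was in replicate 1 of sequence 3. The knockdown mean was 33.4% of the control mean. On the log2(FPKM + 1) scale the difference was -1.72 (standard error 0.529, 95% interval -3.03 to -0.42), with an adjusted p of 0.136 from limma and an unadjusted p of 0.0184. The exact two-sided permutation p was 0.133. Of the 10558 genes tested, 172 had a lower log2 difference than Il6, and 1427 had a smaller p. Replicates of Il6 differed widely. The higher replicate was 2.76 times the lower with sequence 2 and 2.85 times with sequence 3, against 1.145 times in controls. The pooled within-group SD of Il6 was 0.834 on the log2 scale, above that of 97.7% of the genes tested, whose median SD was 0.184. With both sequences the value near 50 FPKM was in replicate 1 and the value near 18 in replicate 2, whereas in controls replicate 1 was the lower.

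Ptgs2 was 23.9 and 24.9 FPKM in the controls, 17.1 and 19.8 with sequence 2, and 19.2 and 13.8 with sequence 3. The groups did not overlap, and the lowest value was in replicate 2 of sequence 3, a library that correlated less with its partner (Pearson's r across genes 0.955) than the replicates of the other groups did (0.968 and 0.971). The knockdown mean was 71.6% of the control mean, the smallest share after Il6. The difference was -0.47 on the log2(FPKM + 1) scale (standard error 0.154, 95% interval -0.85 to -0.09), with an adjusted p of 0.155 from limma and an unadjusted p of 0.0235. The exact two-sided permutation p was 0.133. In 800 of the 10558 genes the log2 difference was lower. The within-group SD of Ptgs2 was 0.201 on the log2 scale, near the median gene.

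Vcam1 was 592 and 600 FPKM in the controls, 512 and 365 with sequence 2, and 459 and 474 with sequence 3. All knockdown libraries were lower than both controls, and replicate 2 of sequence 2 was the lowest. The knockdown mean was 75.9% of the control mean. The difference was -0.41 on the log2(FPKM + 1) scale (standard error 0.155, 95% interval -0.79 to -0.03), with an adjusted p of 0.206 from limma and an unadjusted p of 0.0404. The exact two-sided permutation p was 0.0667, the smallest this design can give.

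Icam1 stood apart from the other 3 genes by the evenness of its level in FPKM as deposited. It was 96.7 and 98.0 FPKM in the controls, 95.9 and 96.8 with sequence 2, and 98.2 and 102 with sequence 3. The groups overlapped, and the highest value, in replicate 2 of sequence 3, was 1.04 times its partner. The difference was 0.013 on the log2(FPKM + 1) scale (standard error 0.0853, adjusted p = 0.944 from limma), and its 95% interval ran from -0.20 to 0.22, that is, from 0.872 to 1.17 times the control level. The sign of this difference changed to -0.013 when each library was scaled to the same median, to -0.071 after quantile normalization and to -0.087 when each library was scaled to the same summed FPKM, so no direction is given for Icam1. Its within-group SD, 0.0262 on the log2 scale, was below that of all but 0.672% of the genes tested. This rank holds for FPKM without rescaling. The summed level of all genes ran from 298377 FPKM in replicate 1 of the controls to 368004 in replicate 2 of sequence 3.

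**Figure D2:**
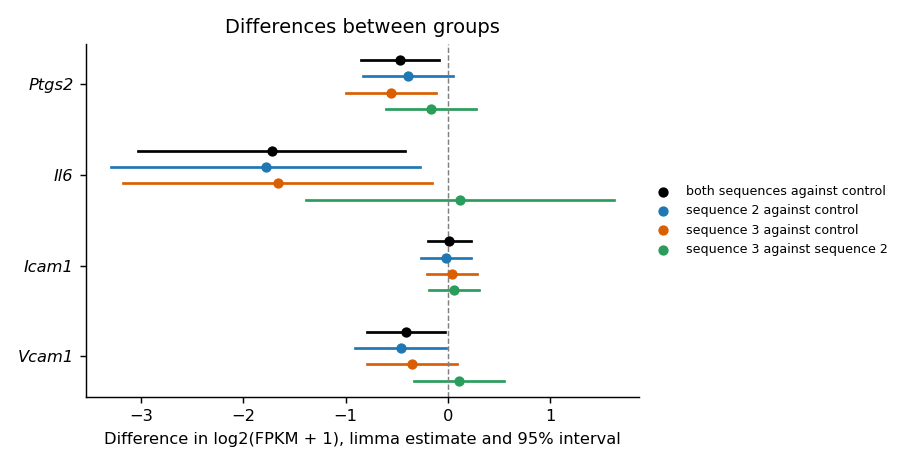
Difference in log2(FPKM + 1) between groups for each gene, as the limma estimate (point) with its 95% interval (line), for the 4 comparisons named in the legend. The Il6 intervals are the widest, from -3.03 to -0.42 for both sequences against control, and the Icam1 interval runs from -0.20 to 0.22.

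**Figure D3:**
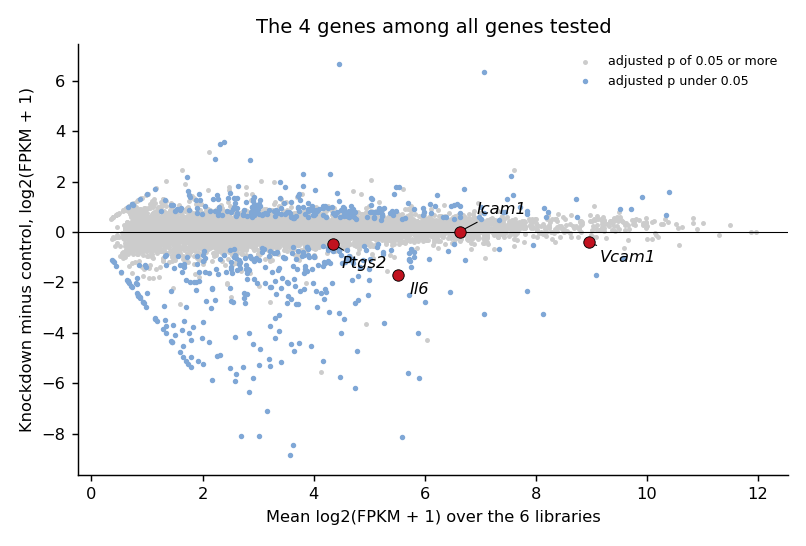
Knockdown minus control difference in log2(FPKM + 1) against the mean log2(FPKM + 1) over the 6 libraries for 10558 genes, with genes at an adjusted p under 0.05 in blue and the 4 genes in red. Il6 lies at -1.72, Ptgs2 at -0.47 and Vcam1 at -0.41, and none of the 4 is among the genes past the threshold.

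Because any scaling of a whole library cancels in a ratio of 2 genes of that library, the other genes were also set against Icam1. The ratio of Il6 to Icam1 was 0.974 and 1.10 in the controls, 0.493 and 0.177 with sequence 2, and 0.532 and 0.179 with sequence 3. The ratio of Ptgs2 to Icam1 was 0.248 and 0.254 in the controls and 0.135 to 0.205 in the knockdown libraries. The ratio of Vcam1 to Icam1 was 6.12 in both controls and 3.77 to 5.34 in the knockdown libraries. The equal control ratios rest on the sum of the Vcam1 loci, since the main locus alone was 572 and 509 FPKM there. In none of the 3 ratios did the knockdown and control libraries overlap, with exact two-sided permutation p-values of 0.133, 0.133 and 0.0667. These p-values are the same as those of the levels. Because Icam1 was nearly even over the libraries, the ratios largely repeat the levels and are no separate support. The share of all genes with such a ratio was not computed. The ratios show unequal levels relative to Icam1, and do not show which gene of a pair stayed at its level.

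The next question was whether each interference sequence gave the difference on its own, and both comparisons share the 2 control libraries. With sequence 2 against control 0 of the 4 genes passed the adjusted threshold by limma, against 3.55% of all genes, and 2 were lower at an unadjusted p under 0.05, against 6.76% of all genes. With sequence 3 these were again 0 by limma, against 4.21% of all genes, and 2, against 6.53%. For Il6 the log2 difference was -1.78 with sequence 2 (adjusted p = 0.237 from limma) and -1.67 with sequence 3 (adjusted p = 0.192). For Ptgs2 it was -0.39 with sequence 2 (adjusted p = 0.367) and -0.55 with sequence 3 (adjusted p = 0.154). For Vcam1 it was -0.46 with sequence 2 (adjusted p = 0.289) and -0.35 with sequence 3 (adjusted p = 0.303). Il6 and Vcam1 with sequence 2, and Il6 and Ptgs2 with sequence 3, were the ones under an unadjusted p of 0.05. For Icam1 the difference was -0.015 with sequence 2 and 0.042 with sequence 3 (adjusted p = 0.961 and 0.833). Single libraries weighed on these values. Leaving out 1 library at a time gave log2 differences for Il6 of -2.49 to -1.07 with sequence 2 and -2.40 to -0.93 with sequence 3. The corresponding ranges were -0.78 to -0.33 for Ptgs2 with sequence 3 and -0.71 to -0.22 for Vcam1 with sequence 2. In each of these 4 ranges the lowest value came without replicate 1 of the sequence and the highest without its replicate 2. No adjusted p from limma in them was below 0.0569.

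Sequence 3 was also set directly against sequence 2. By limma 0 of the 4 genes passed the adjusted or the unadjusted threshold, against 0.0663% of all genes at the adjusted one and 5.44% at the unadjusted one. The log2 difference was 0.12 for Il6 (95% interval -1.39 to 1.63), -0.17 for Ptgs2 (-0.61 to 0.27), 0.057 for Icam1 (-0.19 to 0.30) and 0.11 for Vcam1 (-0.33 to 0.55). The interval for Il6 spans from 0.381 to 3.09 times the level of sequence 2, so these libraries leave the size of any difference between the sequences wide for this gene. For Icam1 the interval was much narrower, from 0.879 to 1.23 times.

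The genes differed in how they were recorded in the files. Ptgs2, Il6 and Icam1 each had 1 transcript start, 1 transcript end and 0 splicing events, and start and end held the same FPKM in all 6 libraries within 0.1%. The sources used here do not name the genome build behind the coordinates of the files. In those coordinates Ptgs2 was the locus XLOC_012196 on chromosome 13 from 67351087 to 67359335, Il6 the locus XLOC_031382 on chromosome 4 from 3043231 to 3047807, and Icam1 the locus XLOC_043139 on chromosome 8 from 22035256 to 22047059. All 3 were on the plus strand of the files. Vcam1 had 7 starts, 4 ends and 10 splicing events in 4 loci on chromosome 2.

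The main Vcam1 locus, XLOC_024849, lay on the minus strand from 219084742 to 219097929. It held 572 and 509 FPKM in the controls, 461 and 346 with sequence 2, and 395 and 434 with sequence 3. All 4 knockdown libraries were below both controls in this locus alone, as they were for 11.2% of the genes tested. The locus holds most of the Vcam1 level, so this largely repeats the result of the whole gene. The difference of the locus was -0.41 on the log2 scale (standard error 0.149, adjusted p = 0.195 from limma over loci), close to that of the whole gene. The Vcam1 level rests on starts, since an end of this locus was listed only in replicate 1 of the controls, at 18.7 FPKM. The start from 219097499 to 219097619 made up 85.1% to 89.3% of the starts of the locus in every library. A start from 219097870 to 219097929 was listed only in replicate 2 of sequence 2, at 44.3 FPKM, and there the start from 219090811 to 219090874 was 3.18 FPKM, against 41.9 to 58.5 in the other 5 libraries.

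The files also give the ID of Vcam1 to 3 loci on the plus strand, opposite to the main locus and within or beside its span. Together they made up 3.43% and 15.2% of the Vcam1 level in the controls and 5.06% to 14.0% in the knockdown libraries. The locus XLOC_023653, from 219087921 to 219097015, varied between 6.61 and 80.3 FPKM with overlap between all groups. The locus XLOC_023652, from 219086006 to 219093027, was 12.4 and 11.05 FPKM in the controls, 9.47 and 11.9 with sequence 2, and neither library of sequence 3 had an entry for it. No fold and no test are given for it here, since a level of 0 would only stand for an unlisted locus. The locus XLOC_023651, from 219078529 to 219082181, was listed only in replicate 1 of sequence 3, at 6.55 FPKM. The sources used here do not say whether the libraries kept the strand of the RNA, and without strand, reads of a gene and of a transcript opposite to it cannot be told apart.

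Splicing events of Vcam1 were read as the share of the inclusion FPKM in the inclusion and skipping FPKM of the same exon, although the files give the paired events different flanking exons. For the 146-base exon from 219096890 to 219097035 this share was 28.9% and 26.1% in the controls, 25.6% with replicate 1 of sequence 2, and 40.5% and 22.2% with sequence 3. For the 277-base exon from 219087561 to 219087837 it was 20.1% and 19.4% in the controls, 23.01% with replicate 1 of sequence 2, and 16.8% and 17.6% with sequence 3. In replicate 2 of sequence 2, the library with the lowest Vcam1 level, neither inclusion event was listed, with skipping events at 114 and 137 FPKM. The share of the 277-base exon leaves out a longer form, from 219087561 to 219087881, held by a joint inclusion event. That event was at 306 and 280 FPKM in the controls and 161 to 250 in the knockdown libraries, with 161 in replicate 2 of sequence 2. The share is therefore not that of all transcripts with this exon. The knockdown libraries lay on both sides of the controls for both exons, and no test was made with 2 libraries a group.

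**Figure D4:**
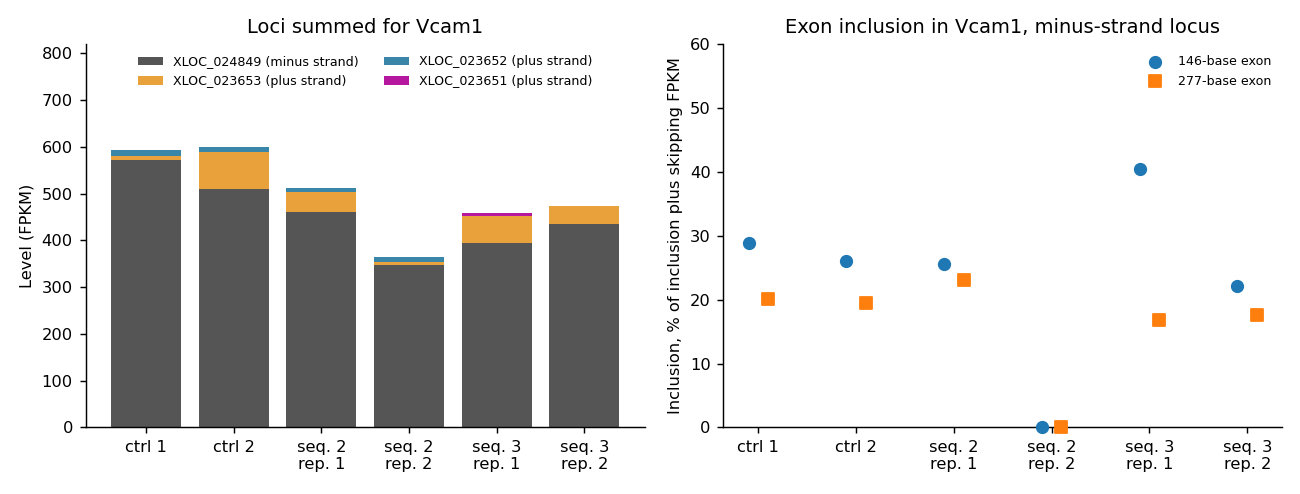
Left, the FPKM of the 4 loci that carry the Vcam1 ID, stacked for each library. Right, the inclusion share of 2 Vcam1 exons in percent, with replicate 2 of sequence 2 at 0 for both exons because neither inclusion event was listed there. The share of the 277-base exon leaves out a longer form of it, which was listed in every library.

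Genes with a pattern like that of each of the 4 genes were ranked by Pearson's r of log2(FPKM + 1) over the 6 libraries, among genes with an Ensembl ID and a log2 range of at least 1, as a description only. The points share the same 6 libraries, and the controls stand apart from the knockdown libraries. The gene most like Vcam1 was ENSRNOG00000011540 (r = 0.990), at 16.4 and 16.1 FPKM in the controls and 6.78 to 12.7 in the knockdown libraries. The gene most like Ptgs2 was ENSRNOG00000053881 (r = 0.982), at 4.73 and 4.41 FPKM in the controls and 1.66 to 3.02 in the knockdown libraries. The best r was 0.977 for Il6 and 0.982 for Icam1. Neither ENSRNOG00000011540 nor ENSRNOG00000053881 passed the adjusted threshold by limma in knockdown against control, with adjusted p-values of 0.167 and 0.125. An r over 0.9 was reached by 70 genes for Ptgs2, 16 for Il6, 26 for Icam1 and 18 for Vcam1, out of about 2242 candidates. Icam1 itself lay between 95.9 and 102 FPKM, so its r rests on small differences between libraries.

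The differences of Il6, Ptgs2 and Vcam1 between knockdown and control kept their sign under every setting run, while their size depended on single libraries. The constant sign is little support. Every knockdown library lay below both controls for these genes, so leaving out 1 library could not change it. Other filters, the mean-variance trend and the replicate block leave the estimate itself unchanged. Leaving out 1 library at a time moved the log2 difference of Il6 between -2.09 and -1.36 (adjusted p from limma 0.0648 to 0.419), that of Ptgs2 between -0.58 and -0.36 (adjusted p 0.0552 to 0.465) and that of Vcam1 between -0.53 and -0.29 (adjusted p 0.157 to 0.537). With a library left out, its remaining partner was taken to have the same spread as the other groups. The smallest adjusted p for any of these genes under any setting was 0.053, for Vcam1 after quantile normalization.

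**Figure D5:**
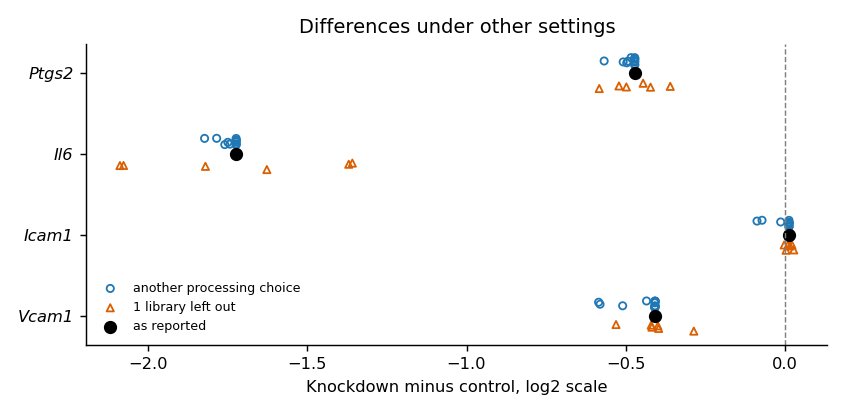
Knockdown minus control difference on the log2 scale for each gene as reported (black), under other processing choices (blue circles) and with 1 library left out (orange triangles). Il6, Ptgs2 and Vcam1 stay below 0 throughout, and Icam1 lies on both sides of 0. For Il6, Ptgs2 and Vcam1 leaving out 1 library could not change the sign, since every knockdown library lies below both controls.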

How the data were processed

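Transcripts were measured by RNA-seq in 6 libraries, 2 in each of the control, sequence 2 and sequence 3 groups. The authors deposited 1 table per library with FPKM values for transcript start, transcript end and splicing events, and no counts. The depth behind a value is therefore unknown, and counting intervals are not given. Named in the submitters' processing notes, without a role, are HISAT2 2.0.1, HTSeq 0.6.1, StringTie 1.0.4, Trimmomatic 0.30, SAMtools 0.1.18 and bcl2fastq 2.17.1.14. Neither the genome build nor the program that listed events is named in the sources used here. The tables listed 11431 to 11701 genes per library. The group came from the sample titles, whose last number was read as the replicate.

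Repeated event IDs were dropped. Events were summed by Ensembl ID, or by locus where none was given, the larger of summed starts and ends was the level, and an unlisted gene was set to 0. Genes that reached an FPKM of 1 in 2 or more libraries were tested on log2(FPKM + 1), a scale that understates changes of low genes, with limma 3.58.1 in R 4.3.3 (mean-variance trend, 1 mean per group, two-sided, Benjamini-Hochberg adjustment). The fit was also run on simulated data as a check of the code, and no detection rate for differences of the size seen here is given. Exact permutation tests used scipy 1.17.1 in Python 3.11.15. The study's methods name no tool for differential expression.

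The genes and lists were chosen with earlier results of these data known. The rule for named genes took the 4 genes and the 3 genes most like each. Of the 12224 Ensembl IDs, 0 were paired with a symbol by the gene table used here, so only 2 of the like genes are printed, and the planned lists for prostanoid, interleukin-6, adhesion and NF-kappaB genes and for cell type markers were not analysed. The replicate numbers were not used as pairs in the main fit, and the closing section gives the fit with them. Other pseudocounts, filters, scalings, sums and left-out libraries were tried.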

Additional observations from a re-analysis of the deposited data

Results flagged for a closer look

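The locus XLOC_023652, which carries the Vcam1 ID on the strand opposite to the main locus, was listed with sequence 2, at 9.47 and 11.9 FPKM, and in both controls, and in neither library of sequence 3. With 0 set for the unlisted libraries, the log2 difference of sequence 3 against sequence 2 was -3.54 with a pseudocount of 1, -4.47 with 0.5 and -6.74 with 0.1. Its size is therefore set by the pseudocount and is no measured fold. The locus passed the limit on low values only through the libraries in which it was listed, and the 2 set values have no spread, so the adjusted p of 0.00586 from limma over loci is not read as a call. Leaving out 1 library at a time gave adjusted p-values from 0.0179 to 0.123.

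Splicing events were not part of the levels compared between groups, and 3 of them were listed for Vcam1 in a single knockdown library and in neither control. The joint skipping of the exons from 219086008 to 219087881 was listed at 48.3 FPKM in replicate 2 of sequence 2. The joint inclusion of the exons from 219087561 to 219093049, and the inclusion of the exon from 219092783 to 219093049, were both listed at 19.8 FPKM in replicate 1 of sequence 3. The last 2 events share splice junctions and are not independent. None of the 3 was listed in the other library of the same sequence.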

How the results depend on the processing

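Of 304 values of the 4 genes under other settings 0 passed the adjusted threshold by limma, as with the reported settings, with unadjusted counts as given above, and 16 changed sign. The cause of the changes was not tested. Summed ends of Vcam1 came from its plus-strand loci alone, except in control replicate 1. Scaling to the same summed FPKM and the minus-strand locus were chosen after seeing the data. The difference of Icam1 against control changed sign with scaling to the same median (-0.013 for both sequences and -0.00095 for sequence 3), quantile normalization (-0.071 and -0.105) and the same summed FPKM (-0.087 and -0.122). Between the sequences the sign changed with quantile normalization for Icam1 (-0.067) and Vcam1 (-0.049), and with the same summed FPKM for Il6 (-0.0046), Icam1 (-0.070) and Vcam1 (-0.019). Leaving out 1 library gave -0.0017 to 0.028 for Icam1 in knockdown against control, and between the sequences -0.61 to 0.85 for Il6, -0.39 to 0.056 for Ptgs2 and -0.13 to 0.35 for Vcam1. At XLOC_023652 it gave -0.28 to 0.020 for sequence 2 against control, the sign changing without replicate 1 of sequence 2.

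By limma 539 genes were called for knockdown, 375 for sequence 2 and 444 for sequence 3, each against control, and 7 between the sequences. Without 1 library these were 163 to 628, 128 to 404, 135 to 562 and 0 to 12, with counts against control over 1.5 times lower without either control or either library of sequence 2. With only the libraries compared, 251 were called with sequence 3 and 0 for sequence 3 against sequence 2 (495 unadjusted, p under 0.05). Between the sequences 11 were called with either other pseudocount, 12 without the trend, 14 with summed starts, 4 with summed ends and 0 over genes with an FPKM of at least 1 in all 6 libraries (510 unadjusted). The same summed FPKM moved the calls with sequence 3 from 253 lower and 191 higher to 282 and 125, and the median log2 difference of all genes from 0.114 to -0.0273.

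The main fit did not pair the libraries by replicate number. Across genes, the deviations of same-numbered libraries from their group means correlated at -0.0707, 0.181 and -0.0861. These values cannot show whether same-numbered libraries were prepared together. With the replicate block 379 genes were called in knockdown against control and 0 between the sequences (545 unadjusted), and the adjusted p of Il6 was 0.105, of Ptgs2 0.223 and of Vcam1 0.256. Without counts, the limits set by depth could not be computed.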
